A study of Mus musculus with 22 samples.

Results

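The 25 genes described here encode receptors for the inhibitory transmitter GABA, the enzymes that make and degrade it, its transporters, and proteins that hold the receptors at the synapse. They were taken from a list of symbols matched by Ensembl identifier, a rule that used no measured value. The list itself was chosen with earlier results of these data known. Its genes make up 25 of the 39179 genes counted in each of 22 RNA-seq samples. The study removed exons 7 and 8 of *Phf8*, a histone demethylase gene on the X chromosome, in mice and compared knockout (KO) with wild-type (WT) samples, all on the strain background B6x129SvJ. Prefrontal cortex (PFC) and ventral striatum (STR) were taken at 2 months of age, each from 3 WT and 3 KO samples. Neural progenitor cells (NPCs) came from E16.5 embryos and were grown as a monolayer (3 WT, 3 KO), and embryonic stem cells (ESCs) came from blastocyst outgrowths kept on gelatin or feeder cells (2 WT, 2 KO). The KO allele was made by Cre deletion in clonally expanded ESCs, so every KO sample carries an allele of that origin. No label says that samples of a group came from separate animals or cultures, so p-values measure the spread between these samples, which may be technical.

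GABA is made from glutamate by the decarboxylases GAD67 and GAD65, loaded into vesicles, released, and cleared by plasma membrane transporters before it is degraded in mitochondria. Ionotropic GABA-A receptors are pentameric chloride channels whose subunit mixture sets their location and drug response, while metabotropic GABA-B receptors work as obligate pairs coupled to G proteins. Most neurons of the striatum are GABAergic projection neurons, whereas cortical projection neurons are glutamatergic and cortical GABA comes from interneurons. Astrocytes and progenitor cells can also carry GABA transporters and receptors.

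Total counts per sample ranged from 5898286 to 10148073 in the brain samples and from 11455757 to 15539811 in the cultured cells. *Phf8* itself lay at 41.7 to 57.8 CPM (a gene's count scaled to its sample's total) in the WT brain samples and 14.8 to 23.7 in the KO brain samples, at 35.6 to 38.0 in WT against 12.7 to 14.9 in KO NPCs, and at 54.5 to 59.5 in WT against 13.4 to 19.6 in KO ESCs, so no genotype label was contradicted. Markers matched the labelled tissues: 10 of 10 striatal projection neuron genes were lower in PFC than in STR and 8 of 8 cortical excitatory neuron genes were higher, and 6 of 6 embryonic stem cell genes were lower in NPCs than in ESCs. Of the neural progenitor list 6 of 6 genes were higher in NPCs, and 5 of them passed the test used below. Several libraries stood apart from their group. The library of STR KO sample 1 had a mean hypothalamus marker level of 3.42 on the log2(CPM + 0.5) scale against 0.57 to 1.54 in the other 5 STR samples, and a cortical excitatory marker level of 3.17 against 4.98 to 5.48. STR KO sample 2 had a leptomeninges marker level of 4.13 against 2.23 to 3.29. In NPC sample 2 of either genotype the oligodendrocyte level was 3.45 (WT) and 4.61 (KO) against 6.47 to 6.92 in the rest. ESC sample 2 had a level of the leptomeninges marker list of 5.12 (WT) and 5.27 (KO) against 2.30 and 2.27 in sample 1. Of that list *Col1a1* lay at 1417 and 1772 CPM against 68.8 and 65.1 CPM, while *Slc22a6* had at most 1 count. In these cultured cells the list is not read as that tissue, and the source of its RNA was not tested.

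Many of the genes lie in clusters. On chromosome 5, *Gabrg1*, *Gabra2* and *Gabra4* share the minus strand and *Gabrb1* starts head to head with *Gabra4* with an overlap of 0.2 kb. *Gabrg3* and *Gabra5* lie 20.5 kb apart on chromosome 7, *Gabrr2* and *Gabrr1* lie 36.7 kb apart on chromosome 4, *Gabra6* and *Gabrb2* lie 98.7 kb apart on chromosome 11, and *Gabre*, *Gabra3* and *Gabrq* lie in a row on the X chromosome. Exons of *Gabra4* and *Gabrb1*, of *Gabra5* and *Gm9962*, of *Slc32a1* and *Gm14205*, and of *Gphn* and *Gm48226* overlap on opposite strands, and without a stated strand setting reads from such partners cannot be told apart. The 250 bases upstream of the annotated start are shown for 4 genes that the comparisons below return to: the transporter gene with the highest level in NPCs (*Slc6a11*), a subunit gene lower in PFC and abundant in NPCs (*Gabrg1*), a subunit gene low in PFC and present in STR (*Gabrq*), and a subunit gene higher in PFC (*Gabra5*). The windows come from RefSeq on GRCm38.p6 and are written 5′ to 3′ on the gene's strand. Capitals mark the letters of the GC box GGGCGG (or its complement) and of the homeodomain core TAATTA, and the TATA box TATAAA was searched too, each on both strands.
Slc6a11, chr6:114130991-114131240, plus strand: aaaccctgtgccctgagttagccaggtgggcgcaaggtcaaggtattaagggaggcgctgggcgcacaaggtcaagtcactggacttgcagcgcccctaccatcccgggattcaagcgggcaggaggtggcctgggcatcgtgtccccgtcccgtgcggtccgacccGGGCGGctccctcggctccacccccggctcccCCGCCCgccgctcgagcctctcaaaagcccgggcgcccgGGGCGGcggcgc
Gabrg1, chr5:70842618-70842867, minus strand: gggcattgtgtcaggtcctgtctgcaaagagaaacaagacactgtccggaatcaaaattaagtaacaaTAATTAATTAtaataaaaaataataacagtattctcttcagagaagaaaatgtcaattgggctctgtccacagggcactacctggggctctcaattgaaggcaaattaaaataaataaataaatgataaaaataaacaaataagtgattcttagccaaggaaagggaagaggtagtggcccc
Gabrq, chrX:72824928-72825177, plus strand: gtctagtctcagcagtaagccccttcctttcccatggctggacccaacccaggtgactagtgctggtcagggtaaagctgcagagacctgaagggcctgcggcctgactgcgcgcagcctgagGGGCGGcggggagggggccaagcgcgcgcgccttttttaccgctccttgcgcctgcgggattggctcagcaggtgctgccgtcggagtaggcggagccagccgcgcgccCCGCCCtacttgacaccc
Gabra5, chr7:57510060-57510309, minus strand: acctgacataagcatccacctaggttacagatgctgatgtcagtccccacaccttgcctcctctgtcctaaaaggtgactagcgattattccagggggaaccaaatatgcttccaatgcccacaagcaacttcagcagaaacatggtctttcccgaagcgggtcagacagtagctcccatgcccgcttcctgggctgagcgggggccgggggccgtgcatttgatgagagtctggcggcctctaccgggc
Among these windows that of *Slc6a11* holds 25 CpG dinucleotides, that of *Gabrq* 19, that of *Gabra5* 9 and that of *Gabrg1* 1, against a median of 6.0 over 32851 such windows. The GC box stands in the *Slc6a11* and *Gabrq* windows and in 32.7% of all windows. TAATTA stands in the *Gabrg1* window and in 4.84% of all windows, TATAAA in none of the 4 shown and in 12.4% of all windows, and the *Gabra5* window holds no match. A match describes these letters only.

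The first question was where the genes are used in WT samples. Levels between genes are compared as RPKM, the CPM divided by the length of all annotated exons in kb. The number of genes with a mean of at least 1 RPKM was 20 of 25 in PFC, 21 in STR, 9 in NPCs and 4 in ESCs. In PFC the highest level was that of *Gabbr1*, a subunit of the GABA-B receptor, with 73.2 ± 7.19 RPKM (SD, n = 3), followed by its partner *Gabbr2* with 60.3 ± 3.16. With the longest transcript as the length *Gabbr1* still led, but *Gad1* (mean 85.15 RPKM) lay above *Gabbr2* (70.1 RPKM). In STR *Gad2*, the gene of GAD65, led with 88.8 ± 7.40 RPKM (SD, n = 3), but *Gabbr1* led when the longest transcript served as the length, and the samples of *Gabbr1* and of *Slc32a1*, the vesicular GABA transporter, overlapped in STR with 75.95 ± 3.47 and 70.6 ± 4.63 RPKM. The first place in NPCs was held by *Slc6a11*, the GABA transporter GAT3, with 191 ± 48.0 RPKM (SD, n = 3), above *Gabarap*, a ubiquitin-like protein that binds GABA-A receptors and takes part in autophagy, with 105.5 ± 6.92. In ESCs *Gabarap* had the highest level with 37.4 ± 10.3 RPKM (SD, n = 2), and *Gabbr1*, *Nlgn2* and *Gphn* were the other genes at 1 RPKM or more.

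**Figure D1:**
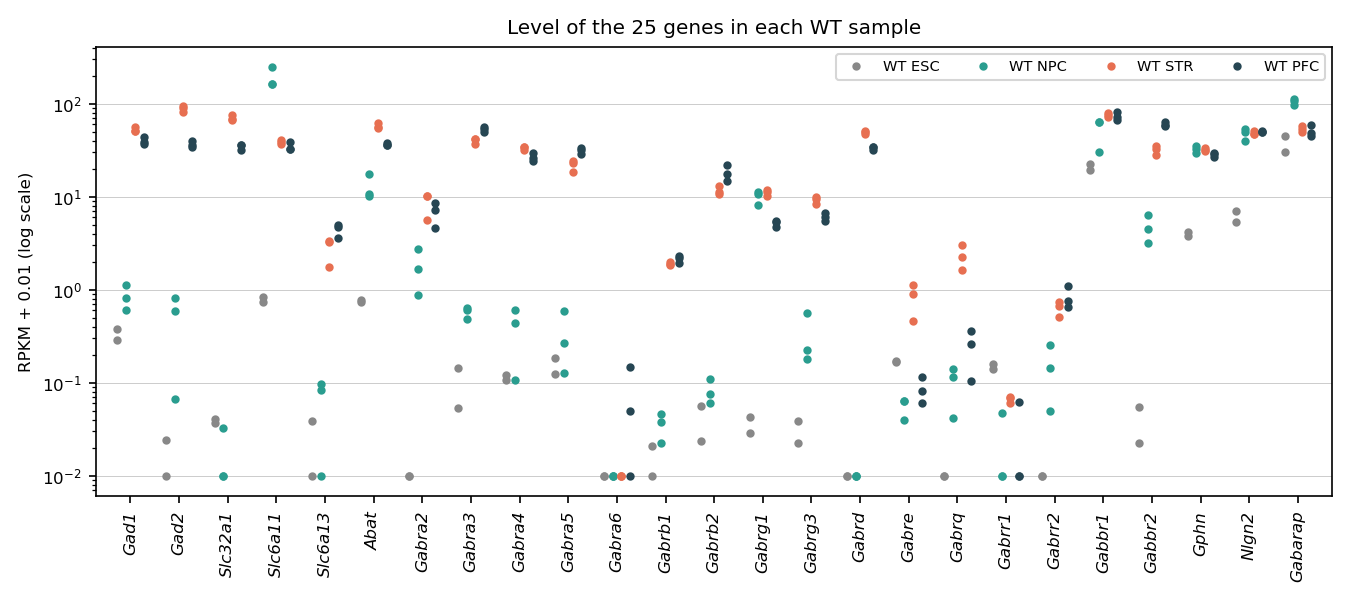
Level of each of the 25 genes in every WT sample as RPKM + 0.01 on a log scale, with each point a sample and colours for tissues. Most genes sit high in PFC and STR and low in ESCs, *Slc6a11* is highest in NPCs, and *Gabra6* stays under 1 RPKM in every sample.

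A few members were close to absent in some tissues. *Gabra6*, the GABA-A subunit of cerebellar granule cells, had 0 counts in all 6 STR, 6 NPC and 4 ESC samples and 0, 1 and 2 counts in the 3 WT PFC samples. A count of 0 over the 3 WT STR libraries together allows up to 0.128 CPM, counting error only. *Gabrr1*, a rho subunit best known from the retina, stayed at or under 0.65 CPM in all 22 samples, and *Gabrr2*, its neighbour on chromosome 4, stayed at or under 2.27 CPM. *Gabre* and *Gabrq*, the epsilon and theta subunits known from hypothalamus and brainstem, had 0.24 to 0.49 and 0.51 to 1.87 CPM in WT PFC.

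The comparison of PFC with STR asked how the inhibitory system differs between a cortical and a striatal region. In the WT samples 14 of 23 tested genes passed edgeR's quasi-likelihood test at a Benjamini-Hochberg adjusted p under 0.05, 4 of them higher and 10 lower in PFC. The lower calls include *Gabre* and *Gabrq*, which reached the filter on low counts (1.27 CPM in 3 samples) within STR but not within PFC. Without the 3 genes that reached it within only 1 region there were 4 higher and 8 lower of 20. Over all 15555 genes tested, 13.0% were called higher and 11.4% lower in PFC. The synthesis and packaging genes were lower in PFC, and *Gabbr2* and the subunit genes *Gabra3*, *Gabra5* and *Gabrb2* were higher. The median log2 fold change of the tested genes was -0.14, against -0.0076 over all genes. In tissue samples a lower level in a region can come from fewer cells of a type or from less RNA per cell, and these cannot be told apart here.

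*Gad2* lay at 233, 214 and 201 CPM in the PFC WT samples and at 526, 476 and 562 CPM in the STR WT samples. No PFC sample came near a STR sample, and the fitted log2 fold change of PFC over STR was -1.23 ± 0.09 (SE, edgeR adjusted p = 7.29e-06). *Gad1*, the gene of GAD67, lay at 299, 285 and 335 CPM in PFC and at 393, 385 and 427 CPM in STR. Its groups were apart too, but the difference was smaller, with a log2 fold change of -0.35 ± 0.09 (edgeR adjusted p = 0.021). It did not pass without STR WT sample 1 (adjusted p = 0.0566), STR WT sample 3 (0.098), PFC WT sample 1 (0.0802) or PFC WT sample 2 (0.066) in the same test. *Slc32a1* lay at 89.9, 101 and 100.4 CPM in PFC and at 189, 191 and 212 CPM in STR, and its log2 fold change was -0.99 ± 0.08 (edgeR adjusted p = 1.33e-05). These 3 genes all encode steps from glutamate to filled GABA vesicles. Beside them, the summed level of the 10 striatal projection neuron markers was 467 to 522 CPM in WT PFC and 2609 to 2919 CPM in WT STR. The summed level of the 10 cortical interneuron markers was 513 to 562 CPM in WT PFC and 478 to 515 CPM in WT STR. Their mean level on the log2 scale was instead lower in PFC without overlap, at 5.14 to 5.29 against 5.38 to 5.51. Of the 10 markers 3 were called higher and 4 lower in PFC, so the direction of the list depended on the measure. The part of cell composition in these differences was not tested.

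Within each sample the ratio of *Gad1* to *Gad2* RPKM separated the regions. It ran from 0.988 to 1.28 in the PFC WT samples and from 0.574 to 0.623 in the STR WT samples, and from 0.959 to 1.06 against 0.541 to 0.613 in the KO samples. With the longest transcript as the length the WT ratios were 2.05 to 2.66 and 1.19 to 1.29, so the regions remained apart while the side of 1 on which STR lay changed with the length. The difference of the log2 ratio between PFC and STR was 0.88 in WT and 0.79 in KO samples (exact permutation test, two-sided, p = 0.1 in each, the smallest that 3 against 3 allows).

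Among the genes of GABA clearance, *Abat*, the transaminase that degrades GABA, was lower in PFC. It had 282, 277 and 293 CPM in the PFC WT samples and 431, 439 and 479 CPM in the STR WT samples, with a log2 fold change of -0.62 ± 0.08 (edgeR adjusted p = 0.000314). *Slc6a11* had 163, 196 and 164 CPM in PFC against 187, 197 and 204 CPM in STR, so the groups overlapped and its log2 fold change of -0.13 ± 0.08 did not pass (edgeR adjusted p = 0.324). *Slc6a13*, the transporter GAT2 of meninges and epithelia, had 14.3, 10.5 and 13.7 CPM in PFC and 9.77, 9.44 and 5.11 CPM in STR. The groups did not overlap, but its log2 fold change of 0.69 ± 0.24 missed the threshold (edgeR adjusted p = 0.0661) and passed once sample numbers entered as a block (0.68, edgeR adjusted p = 0.0184). The leptomeninges list moved with it, with 4 of 6 genes called higher in PFC and a summed level of 128 to 159 CPM against 57.0 to 94.1 CPM, no marker at 0. Its part was not tested.

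The alpha subunit genes, which shape GABA-A receptor pharmacology, split by region. *Gabra5*, whose receptors carry much extrasynaptic current in hippocampus and cortex, had 86.6, 94.1 and 99.0 CPM in the PFC WT samples and 55.6, 67.9 and 71.8 CPM in STR, a log2 fold change of 0.56 ± 0.11 (edgeR adjusted p = 0.00351). *Gabra3* had 209, 195 and 223 CPM in PFC and 147, 164 and 165 CPM in STR, a log2 fold change of 0.44 ± 0.09 (edgeR adjusted p = 0.00494). Neither gene overlapped between the regions. *Gabra4*, an alpha subunit of tonic receptors with the delta subunit, had 179, 147 and 158 CPM in PFC and 211, 192 and 209 CPM in STR. Its log2 fold change of -0.30 ± 0.09 passed narrowly (edgeR adjusted p = 0.04). It did not pass when all 4 brain groups were fitted together (0.0556), nor without STR WT samples 1, 2 or 3 (0.126, 0.0575 and 0.124) or PFC WT sample 2 (0.124). *Gabra2*, a synaptic subunit abundant in striatum and limbic cortex, had 65.1, 35.5 and 55.1 CPM in PFC and 77.6, 42.6 and 78.1 CPM in STR, with WT sample 2 the lowest in both regions. Without a block its log2 fold change of -0.31 ± 0.27 did not pass (edgeR adjusted p = 0.474), and once sample numbers entered as a block it was -0.30 ± 0.08 and passed (edgeR adjusted p = 0.00758).

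Of the beta subunit genes, which form part of every common GABA-A receptor, *Gabrb2* had 141, 113 and 95.1 CPM in PFC and 82.7, 68.1 and 71.1 CPM in STR. All PFC values were above all STR values, with a log2 fold change of 0.69 ± 0.13 (edgeR adjusted p = 0.00341). *Gabrb1* had 26.6 to 32.0 CPM in PFC and 25.2 to 27.3 CPM in STR, and its log2 fold change of 0.22 ± 0.11 did not pass (edgeR adjusted p = 0.189).

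The gamma subunit genes on the list were lower in PFC. *Gabrg1*, a gamma subunit also found in glia, had 43.0, 41.8 and 37.1 CPM in PFC and 88.7, 79.7 and 92.5 CPM in STR, a log2 fold change of -1.05 ± 0.09 (edgeR adjusted p = 1.89e-05). *Gabrg3* had 79.0, 72.7 and 65.6 CPM in PFC and 118, 99.5 and 114 CPM in STR, a log2 fold change of -0.57 ± 0.09 (edgeR adjusted p = 0.00143). It thus differed from its neighbour *Gabra5*, which was higher in PFC. *Gabrd*, the delta subunit of extrasynaptic receptors, had 91.7, 99.1 and 98.7 CPM in PFC and 137, 142 and 145 CPM in STR, and its log2 fold change was -0.51 ± 0.07 (edgeR adjusted p = 0.000481).

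*Gabre* had 0.24, 0.49 and 0.34 CPM in PFC, which is 2, 5 and 2 counts, and 4.19, 2.13 and 5.24 CPM in STR. *Gabrq* had 1.33, 1.87 and 0.51 CPM in PFC and 11.9, 8.64 and 16.1 CPM in STR. The fitted log2 fold changes were -3.30 ± 0.47 for *Gabre* and -3.15 ± 0.35 for *Gabrq*. Above the filter's cutoff of 1.27 CPM lay 0 PFC samples for *Gabre* and 2 for *Gabrq*, against 3 STR samples for each. Only STR, where they are high, reached the 3 samples needed, so their calls are no support. Of the hypothalamus list, 3 of 12 genes could be tested in WT samples and 2 of them, *Nkx2-1* and *Trh*, were called lower in PFC. The list summed to 4.95 to 20.2 CPM in PFC with 2 to 4 genes at 0, and to 27.4 to 34.3 CPM in STR with 1 to 2 genes at 0, and its part was not tested. *Gabrr2* had 1.57, 2.27 and 1.36 CPM in PFC and 1.40, 1.06 and 1.52 CPM in STR and did not pass (log2 fold change 0.46 ± 0.32, edgeR adjusted p = 0.364).

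The GABA-B subunits went separate ways. *Gabbr2* had 396, 387 and 427 CPM in PFC and 188, 237 and 217 CPM in STR, a log2 fold change of 0.95 ± 0.10 (edgeR adjusted p = 7.64e-05). *Gabbr1*, which binds the ligand, had 556, 520 and 630 CPM in PFC and 565, 586 and 618 CPM in STR, a log2 fold change of -0.01 ± 0.10 (edgeR adjusted p = 0.954). The ratio of *Gabbr1* to *Gabbr2* RPKM was therefore 1.16 to 1.27 in PFC WT samples and 2.13 to 2.58 in STR WT samples, and 1.11 to 1.16 against 2.06 to 2.53 in KO samples. *Gabbr2* carries the surface-targeting and G protein coupling function of the pair.

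None of the 3 scaffold and trafficking genes was called. *Gphn*, gephyrin, the scaffold under glycine and GABA-A receptors, had a log2 fold change of -0.14 ± 0.07 (edgeR adjusted p = 0.215). For *Nlgn2*, the adhesion protein of inhibitory synapses, the log2 fold change was 0.08 ± 0.08, and for *Gabarap* it was -0.05 ± 0.12 (edgeR adjusted p = 0.518 and 0.83). *Nlgn2* lay at 286 to 292 CPM in the PFC WT samples and 271 to 297 CPM in the STR WT samples.

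**Figure D2:**
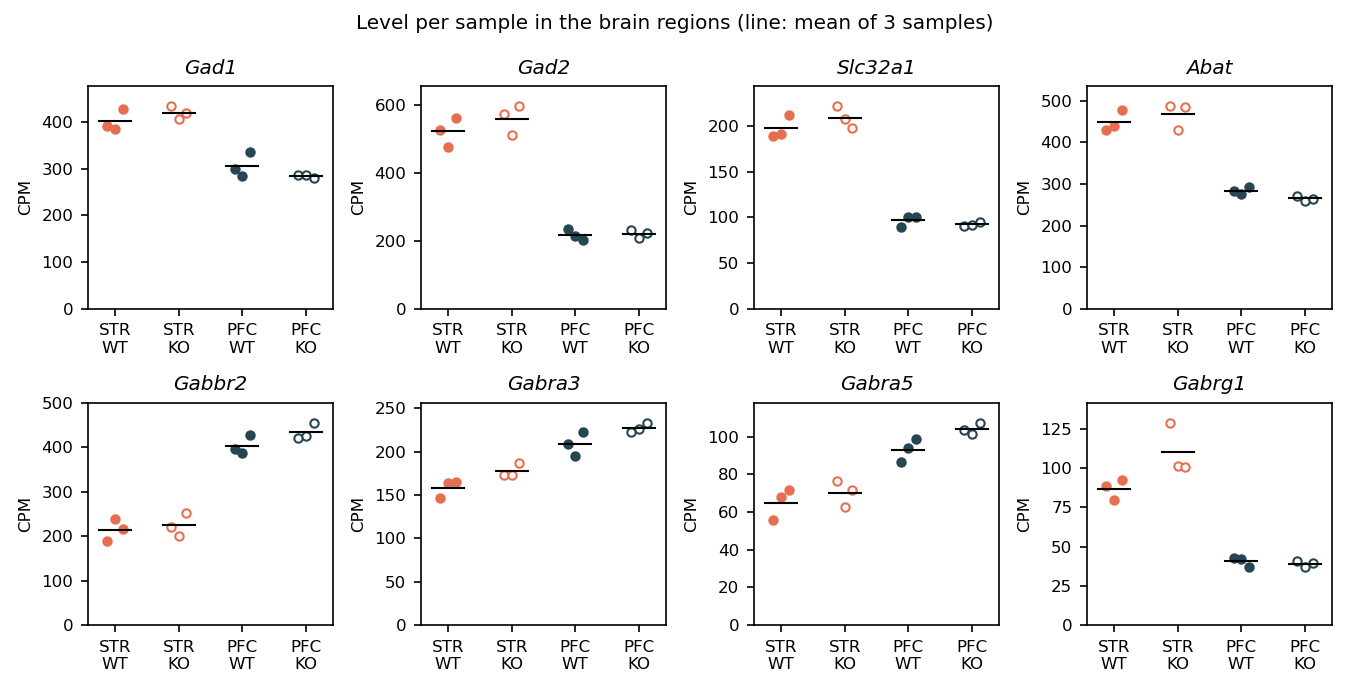
CPM of 8 genes in every brain sample, with filled points for WT, open points for KO and a line at the mean of 3 samples; the axes start at 0. *Gad2*, *Slc32a1*, *Abat* and *Gabrg1* sit lower in PFC than in STR, and *Gabbr2*, *Gabra3* and *Gabra5* sit higher.

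The KO samples gave the same contrast in samples that the WT fit did not use. Of 22 genes tested, 12 were called, 3 higher and 9 lower in PFC, where 13.8% of all 15538 genes tested were called higher and 13.9% lower. The 11 genes called in both genotypes were 78.6% of the WT calls and 91.7% of the KO calls. They include *Gabre* and *Gabrq*, whose WT calls are no support, as given above. The sign of the log2 fold change agreed for 21 of the 22 genes tested in both, *Gabbr1* near 0 being the exception. The share of all genes called in both genotypes, or with the same sign in both, is not given. *Gad2* (-1.29 ± 0.09), *Slc32a1* (-1.12 ± 0.06), *Gabrg1* (-1.45 ± 0.11), *Abat* (-0.76 ± 0.08) and *Gad1* (-0.50 ± 0.06) were again lower in PFC, and *Gabbr2* (1.01 ± 0.10), *Gabra5* (0.62 ± 0.09) and *Gabra3* (0.41 ± 0.07) again higher. *Gabrg3* was lower by a log2 fold change of -0.40 ± 0.09 but did not pass without PFC KO sample 2 (edgeR adjusted p = 0.0523) or PFC KO sample 3 (0.0661). *Gabre* (-4.60 ± 0.73) and *Gabrq* (-4.10 ± 0.57) gave -3.71 and -3.33 without STR KO sample 1, the library high in hypothalamus markers. *Gabre*, with 4, 6 and 4 counts in the PFC KO samples, entered this test through STR alone, and the other 21 genes gave 3 higher and 8 lower calls. The KO contrast had 13 calls without that library. *Gabra4*, *Gabrb2* and *Gabrd* were called in WT only and *Slc6a11* (-0.68 ± 0.12, edgeR adjusted p = 0.0038) in KO only. The difference between genotypes was tested and passed for none of them, as given below. Same-numbered PFC and STR samples deviated together. Once those numbers entered as a replicate block, the calls were 16 (5 higher, 11 lower) in WT and 14 (4 higher, 10 lower) in KO samples. *Gabra2* joined in both, *Slc6a13* in WT and *Gabrb2* in KO (log2 fold change 0.61 ± 0.16, edgeR adjusted p = 0.0301). The share of all genes called in the blocked fits, or without STR KO sample 1, is not given. These counts are therefore not read as particular to the listed genes.

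**Figure D3:**
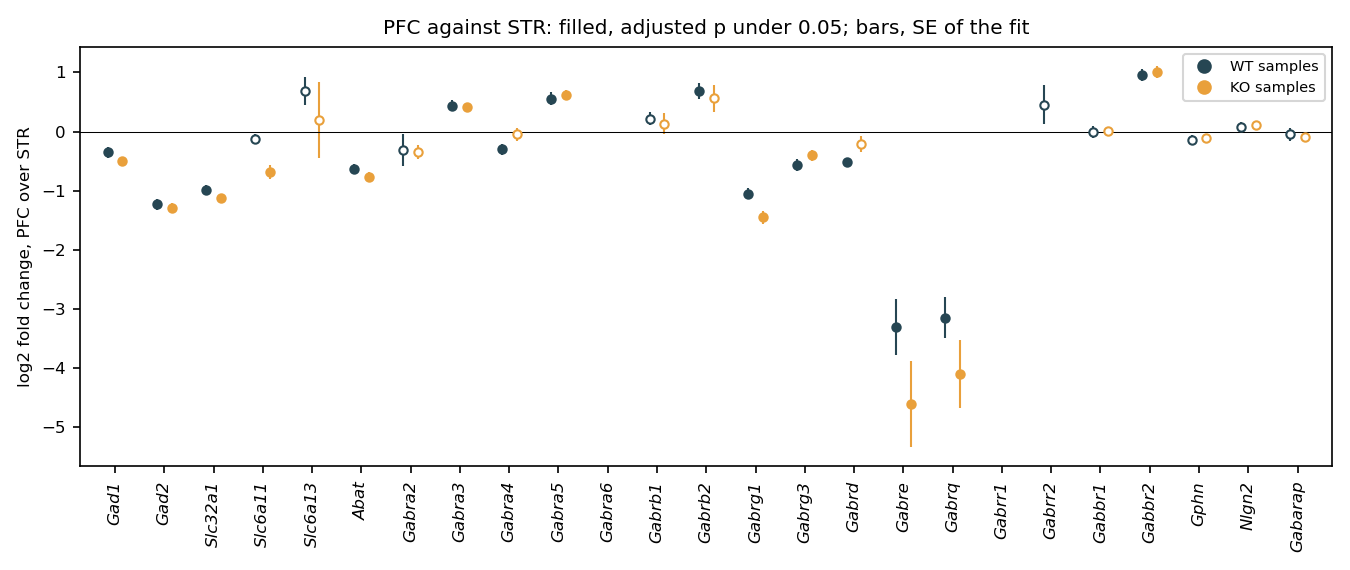
Log2 fold change of PFC over STR for each tested gene with the SE of the fit, in WT and in KO samples; filled points passed at an adjusted p under 0.05. *Gabre* and *Gabrq* lie lowest, the synthesis and packaging genes lie below 0 in each genotype, and *Gabbr2* lies near 1.

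Other genes of the pathway were read from a second list of 25 genes for accessory subunits, chloride transporters and metabolism. In the WT samples 22 were tested, and 6 were called higher and 5 lower in PFC. Over all genes tested, 13.0% were called higher and 11.4% lower. Lower were *Kctd8* (-1.53 ± 0.18) and *Kctd12* (-0.56 ± 0.10), which are auxiliary subunits of GABA-B receptors, and *Shisa7* (-0.65 ± 0.09), an auxiliary protein of GABA-A receptors (edgeR adjusted p = 0.000118, 0.00252 and 0.000389). Higher were *Iqsec3* (0.47 ± 0.12), a gephyrin-binding exchange factor, and *Trak1* (0.25 ± 0.07), a transport adaptor (edgeR adjusted p = 0.0163 and 0.0253). In the KO samples 2 of 22 were called higher and 5 lower, against 13.8% and 13.9% of all genes. *Kctd8* (-1.31 ± 0.11) and *Kctd12* (-0.47 ± 0.07) were again lower and *Trak1* (0.32 ± 0.06) again higher. The list's median log2 fold change was 0.075 in WT and 0.015 in KO samples. Whether genes of this list entered a test through a single group was not checked in any comparison.

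NPC levels were read against the other cultured cells, the ESCs. Of the 25 genes 16 could be tested in WT samples, and 13 were called higher and 1 lower in NPCs, where 34.6% of all 15938 genes tested were called higher and 36.6% lower. For 8 of the 16, among them *Gabra2*, *Gabrg1*, *Gabbr2* and *Gad2*, both ESC samples had fewer than 10 counts, so these entered the test through NPCs alone and their count is no support. *Gabre*, with 9 and 10 counts in ESCs and 2, 3 and 4 counts in NPCs, entered through ESCs alone. The other 7 genes, all called higher, were *Gabbr1*, *Gad1*, *Slc6a11*, *Abat*, *Gphn*, *Nlgn2* and *Gabarap*.

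*Slc6a11* had 1244, 818 and 832 CPM in the WT NPC samples and 4.16 and 3.73 CPM in the WT ESC samples, a log2 fold change of 7.98 ± 0.34 (edgeR adjusted p = 7.32e-05). In KO NPCs it had 892, 968 and 882 CPM, so all 6 NPC samples were above the 163 to 344 CPM of the 12 brain samples. Brain tissue was not tested against NPCs. The astrocyte list moved with it, with 6 of 7 genes called higher in NPCs than in ESCs. Its summed level was 3321 to 6003 CPM in WT NPCs, 185 to 241 CPM in WT ESCs and 1901 to 2245 CPM in the WT brain samples, with no gene at 0, and its part was not tested. *Abat* had 136, 79.8 and 82.6 CPM in NPCs and 5.61 and 5.96 CPM in ESCs (log2 fold change 4.15 ± 0.34, edgeR adjusted p = 0.000352). The transporter gene *Slc6a13* had 3, 3 and 0 counts in the WT NPC samples, and the vesicular transporter gene *Slc32a1* had 0, 0 and 1 counts.

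The synthesis genes were low in NPCs. *Gad1* had 4.59, 6.10 and 8.56 CPM in WT NPCs and 2.12 and 2.83 CPM in WT ESCs, a log2 fold change of 1.41 ± 0.37 (edgeR adjusted p = 0.0177) that was lost without ESC WT sample 1 (1.22, adjusted p = 0.0902). *Gad2* had 3.46, 0.34 and 4.76 CPM in NPCs and a single count over both ESC samples, a ratio of 77.1 with an exact 95% counting interval of 13.6 to 3067. It entered the test through NPCs alone, so its call is no support. The call for *Gad2* was lost without ESC WT sample 1 (edgeR adjusted p = 0.0782) or ESC WT sample 2 (0.113). In WT PFC and STR *Gad1* ran from 285 to 427 CPM and *Gad2* from 201 to 562 CPM.

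Receptor genes in NPCs were few. *Gabrg1* had 89.2, 83.8 and 64.3 CPM in WT NPCs, above the 37.1 to 43.0 CPM of the WT PFC samples overlapping the 79.7 to 92.5 CPM of WT STR, and 0.25 and 0.15 CPM in ESCs (log2 fold change 8.61 ± 0.32, edgeR adjusted p = 5.28e-05). *Gabra2* had 6.56, 21.1 and 12.7 CPM in NPCs and 0 counts in ESCs, at least 109-fold higher against a floor of 3 counts over the ESC WT group. *Gabra3* (2.66 ± 0.50) and *Gabrg3* (3.96 ± 0.83) were higher than in ESCs, but their NPC levels were 1.87 to 2.46 and 2.05 to 6.63 CPM. Like *Gabrg1* and *Gabra2*, these genes entered the test through NPCs alone, so their calls are no support. *Gabrg3* missed the threshold without ESC WT sample 2 (edgeR adjusted p = 0.0503). *Gabra4* (0.59 to 3.67 CPM) and *Gabra5* (0.35 to 1.74 CPM) were not called, and *Gabrd* had 0 counts in all 3 WT samples, which over the group allows up to 0.0723 CPM. *Gabrb1* and *Gabrb2* stayed at or under 1.51 and 0.91 CPM in all 6 NPC samples. *Gabre*, which entered through ESCs, had 0.14 to 0.26 against 0.75 to 0.76 CPM (log2 fold change -1.71 ± 0.43, edgeR adjusted p = 0.0158), a call that is no support and was lost without ESC WT sample 1 (0.0987) and in DESeq2 (0.106).

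The GABA-B genes and scaffold genes were higher in NPCs than in ESCs. *Gabbr2* had 42.4, 21.2 and 30.4 CPM against 0.08 and 0.30 CPM (log2 fold change 7.29 ± 0.61), but it entered through NPCs alone, so its call is no support. *Gabbr1* had 496, 238 and 495 CPM against 173 and 152 CPM (1.38 ± 0.37, edgeR adjusted p = 0.0211). The *Gabbr1* call was lost without ESC WT sample 1 (edgeR adjusted p = 0.0716), ESC WT sample 2 (0.0994), NPC WT sample 1 (0.0602) or NPC WT sample 3 (0.064). *Nlgn2* (231 to 308 against 30.7 to 40.6 CPM, 2.99 ± 0.22), *Gphn* (111 to 132 against 14.0 to 15.8 CPM, 3.08 ± 0.14) and *Gabarap* (181 to 206 against 55.4 to 82.3 CPM, 1.54 ± 0.20) had edgeR adjusted p = 0.000218, 8.04e-05 and 0.00136. Of the second list, 20 genes were tested and 12 were called higher and 3 lower in NPCs, against 34.6% and 36.6% of all genes. Among those higher were *Lhfpl4* (4.59 ± 0.21), which brings GABA-A receptors to synapses, and *Plcl2* (2.84 ± 0.22). Among those lower were *Gabrp* (-8.50 ± 0.78), the pi subunit, and *Gabarapl2* (-0.70 ± 0.22). Whether genes of the second list entered the test through a single culture was not checked, so their calls and counts are not read as support.

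The NPC samples differed among themselves in the same genes. Sample 2 was the lowest of its genotype in both WT and KO for 6 of the 15 genes tested in NPCs, which is 40.0%, against 21.2% of 14351 genes. Those were *Gabra4*, *Gabbr1*, *Gabbr2*, *Gad2*, *Nlgn2* and *Gabarap*. It was the highest in both genotypes for 0 of the 15 genes. Over all 14351 genes sample 2 was the highest in both for 4925 and the lowest in both for 3046. *Gad2* had 0.34 CPM in WT sample 2 and 1.22 CPM in KO sample 2 against 3.46 to 6.01 CPM in the other 4 samples, and *Gabbr1* had 238 and 244 CPM against 370 to 496 CPM. The oligodendrocyte list was low in the same samples, its summed level being 1201 CPM at the lowest in WT and 1400 CPM at the lowest in KO NPCs against highs of 3288 and 3587 CPM, with 2 genes at 0 in WT sample 2 and none in the other NPC samples. The neuron list summed to 23.2 and 29.3 CPM in sample 2 (WT and KO) against 39.9 to 48.3 CPM in the other 4, and the astrocyte list to 3321 and 4157 CPM against 4990 to 6697 CPM, with no gene at 0 in either. The part of these lists was not tested. Without NPC WT sample 2 the contrast with ESCs gave 15 calls, and *Gabbr1* had a log2 fold change of 1.65 (edgeR adjusted p = 0.000275). The share of all genes called in that fit is not given.

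The comparison of KO with WT asked whether loss of *Phf8* changes these genes. In PFC 0 of 22 tested genes passed edgeR's quasi-likelihood test, in which 0.638% of all 15364 genes passed. At an unadjusted p under 0.05 there were 5 genes (11.2% of all genes), and in 6 genes (16.6% of all genes) the KO and WT samples did not overlap. DESeq2 called 0, and edgeR's exact and likelihood ratio tests called 1, *Gabrr2*. The share of all genes called by these other tests is not given. The median log2 fold change was 0.045, against -0.020 over all genes. *Gad1* (-0.10 ± 0.08), *Gad2* (0.03 ± 0.08), *Slc32a1* (-0.06 ± 0.07), *Slc6a11* (-0.01 ± 0.08) and *Abat* (-0.09 ± 0.07) had small fitted changes on the log2 scale.

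*Gabrr2* had 13, 23 and 8 counts in the PFC WT samples and 7, 4 and 1 counts in the PFC KO samples, or 1.57, 2.27 and 1.36 against 0.86, 0.48 and 0.13 CPM. The groups did not overlap, and the log2 fold change was -1.80 ± 0.48 (edgeR quasi-likelihood adjusted p = 0.128). In the exact test the adjusted p was 0.0158, in the likelihood ratio test 0.00794 and without a filter on low counts 0.0267, while DESeq2 gave a log2 fold change of -1.80 and no adjusted p. In the filtered tests the gene entered through the WT samples alone, where it is higher, so the values past the threshold are no support. *Gabrg3* had 79.0, 72.7 and 65.6 CPM in WT and 92.3, 89.7 and 81.6 CPM in KO, and its log2 fold change of 0.28 ± 0.08 did not pass (edgeR adjusted p = 0.178). *Gabra5* had 86.6 to 99.0 CPM in WT and 102 to 108 CPM in KO, and its log2 fold change of 0.17 ± 0.08 did not pass either (edgeR adjusted p = 0.445). *Gabrq* had 1.33, 1.87 and 0.51 CPM in WT and 1.96, 2.16 and 2.92 CPM in KO (0.82 ± 0.37, edgeR adjusted p = 0.434). Of its samples 3 KO and 2 WT lay above the filter's cutoff of 1.22 CPM, and 3 were needed. *Gabrb1* (0.25 ± 0.11) and *Gabrb2* (0.28 ± 0.12) were the other genes with an unadjusted p under 0.05, and their samples overlapped. *Nlgn2*, higher in each KO sample, had 286 to 292 against 292 to 319 CPM, a log2 fold change of 0.08 ± 0.07 (edgeR adjusted p = 0.763). *Abat*, lower in each KO sample, had 277 to 293 against 259 to 272 CPM (edgeR adjusted p = 0.735). The remaining PFC fits were *Gabra2* (0.27 ± 0.19), *Gabra3* (0.13 ± 0.08), *Gabra4* (0.06 ± 0.09), *Gabrg1* (-0.06 ± 0.09), *Gabrd* (-0.04 ± 0.07), *Gabbr1* (0.02 ± 0.09), *Gabbr2* (0.11 ± 0.08), *Slc6a13* (0.06 ± 0.15), *Gphn* (-0.03 ± 0.07) and *Gabarap* (-0.10 ± 0.10).

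In PFC 1 of 22 tested genes of the second list passed, against 0.638% of all genes. *Slc12a2*, the chloride importer NKCC1, was lower in KO with a log2 fold change of -0.44 ± 0.08 (edgeR adjusted p = 0.0408). The oligodendrocyte list moved with it, with 3 of 7 genes called lower in KO and a median log2 fold change of -0.587. The list summed to 1901 to 2479 CPM in WT and 1553 to 1640 CPM in KO PFC with no gene at 0, and its part was not tested.

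**Figure D4:**
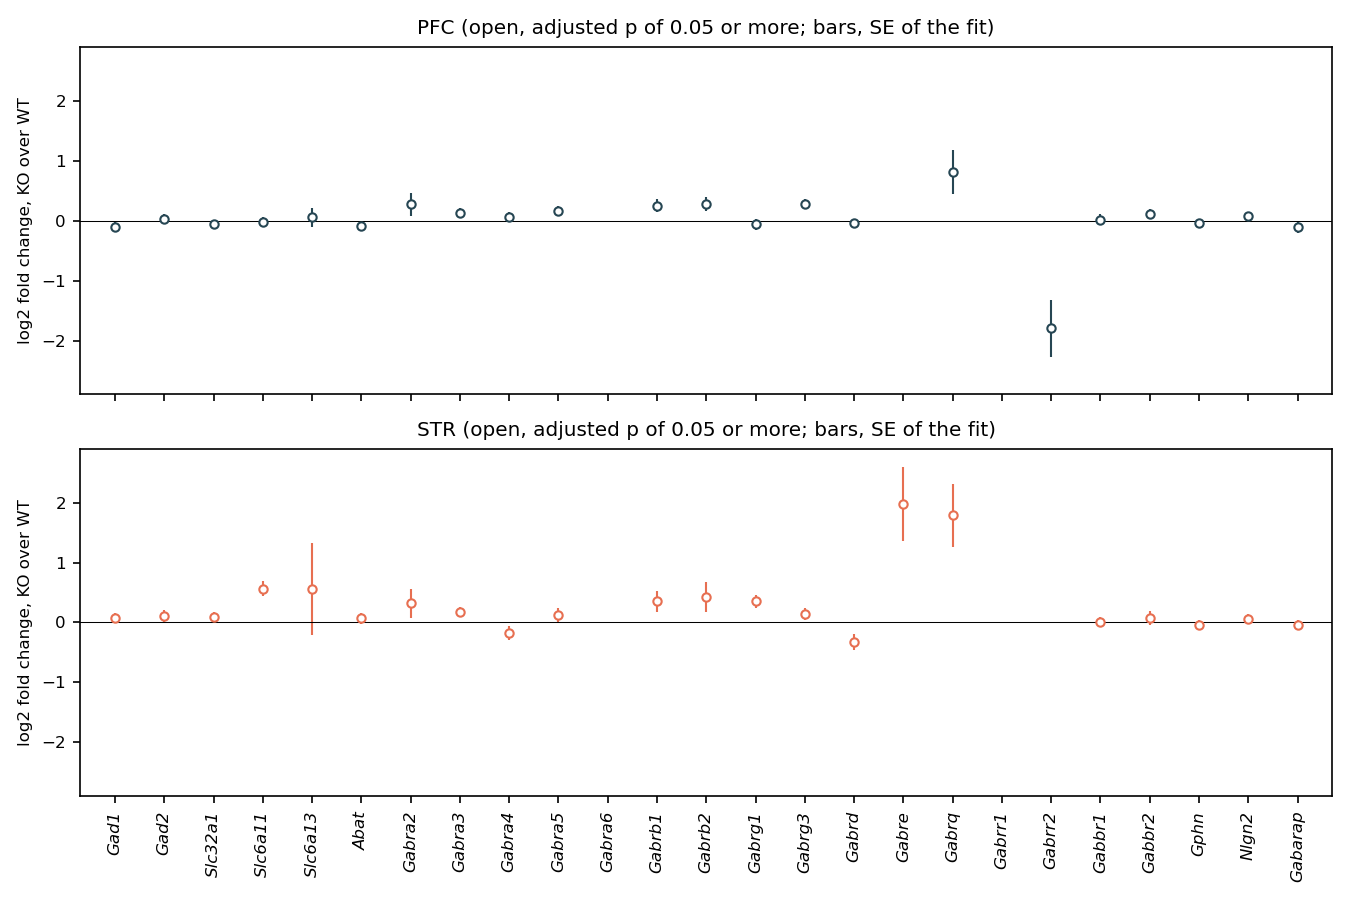
Log2 fold change of KO over WT with the SE of the fit for each tested gene in PFC and in STR; open points did not pass. Most points lie near 0, *Gabrr2* lies lowest in PFC, and *Gabre* and *Gabrq* lie highest in STR with wide bars.

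In STR again 0 of 22 tested genes passed, as did 0% of all 15476 genes. At an unadjusted p under 0.05 there were 5 genes (8.70% of all genes), and KO and WT did not overlap in 6 genes (13.4% of all genes), 5 of them higher in KO. DESeq2 called 2 genes, *Slc6a11* (adjusted p = 0.00836) and *Gabre* (0.0218), and edgeR's exact and likelihood ratio tests called *Slc6a11* (0.0114 and 0.0104). The share of all genes called by these other tests is not given. Their calls therefore cannot be set against the 0% of the quasi-likelihood test. The median log2 fold change was 0.118, against 0.00198 over all genes.

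*Slc6a11* had 187, 197 and 204 CPM in the STR WT samples and 344, 240 and 277 CPM in the STR KO samples. All KO samples were above all WT samples, KO sample 1 the most. The log2 fold change was 0.56 ± 0.13 (edgeR quasi-likelihood adjusted p = 0.397), and it was 0.41 without STR KO sample 1. *Gabrg1* followed with 88.7, 79.7 and 92.5 CPM in WT and 129, 101 and 101 CPM in KO, a log2 fold change of 0.35 ± 0.11 (edgeR adjusted p = 0.416). The astrocyte list had a mean level of 7.40 to 7.43 in the STR KO samples and 7.30 to 7.33 in the STR WT samples on the log2(CPM + 0.5) scale, and summed to 1931 to 2193 CPM in KO and 1901 to 1942 CPM in WT with no gene at 0. Of its 7 genes 5 had a positive log2 fold change and 0 passed, and its part was not tested. *Gabra3* had 147 to 165 CPM in WT and 173 to 187 CPM in KO (0.17 ± 0.08, edgeR adjusted p = 0.608). *Gabrd* had 137, 142 and 145 CPM in WT and 86.9, 133 and 116 CPM in KO, with KO sample 1 the lowest, and its log2 fold change of -0.33 ± 0.13 (edgeR adjusted p = 0.536) was -0.18 without that sample. The striatal projection neuron list summed to 2147 CPM in KO sample 1 and 2549 to 2919 CPM in the other 5 STR samples. Of its 10 genes 10 had a negative log2 fold change and 0 passed, with a median of -0.145, no gene was at 0, and its part was not tested.

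*Gabre* had 4.19, 2.13 and 5.24 CPM in the STR WT samples and 29.2, 9.87 and 6.29 CPM in the KO samples. *Gabrq* had 11.9, 8.64 and 16.1 CPM in WT and 76.9, 26.3 and 22.6 CPM in KO. Neither gene overlapped between the genotypes, and KO sample 1 was the highest by far in each. The log2 fold changes of 1.98 ± 0.62 and 1.79 ± 0.53 did not pass (edgeR adjusted p = 0.453 and 0.452), and without STR KO sample 1 they were 1.07 and 1.01 (adjusted p = 0.917 and 0.514), with 0 of the GABA genes called in that fit. The hypothalamus list was highest in the same sample. Of its 12 genes 6 could be tested, all 6 had a positive log2 fold change, none passed, and 5 did not overlap between the genotypes. The list summed to 50.2 to 292 CPM in the KO samples with at most 1 gene at 0, and to 27.4 to 34.3 CPM in the WT samples with 1 to 2 genes at 0. In KO sample 1 *Otp* lay at 20.7 CPM against 0.138 to 0.582 CPM in the other 5 samples, *Sim1* at 6.21 CPM against 0 counts, and *Oxt* at 45.9 CPM against 0.414 to 11.5 CPM. The part of hypothalamic tissue in these values was not tested. *Slc6a13* had 9.77, 9.44 and 5.11 CPM in WT and 4.66, 27.8 and 3.63 CPM in KO. Its log2 fold change of 0.56 ± 0.77 turned to -0.95 without STR KO sample 2 (edgeR adjusted p = 0.902 and 0.251). In that sample *Slc22a6*, a leptomeninges marker, lay at 17.2 CPM against 1.54 to 4.79 CPM elsewhere in STR and *Igf2* at 113 CPM against 25.1 to 55.4 CPM, with no marker of that list at 0. *Dcn*, *Col1a1* and *Col1a2* of the list were highest there too. *Lum* was not, with 1.05 CPM there and 0.279 to 1.73 CPM in the other STR samples. The part of leptomeninges in these values was not tested.

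**Figure D5:**
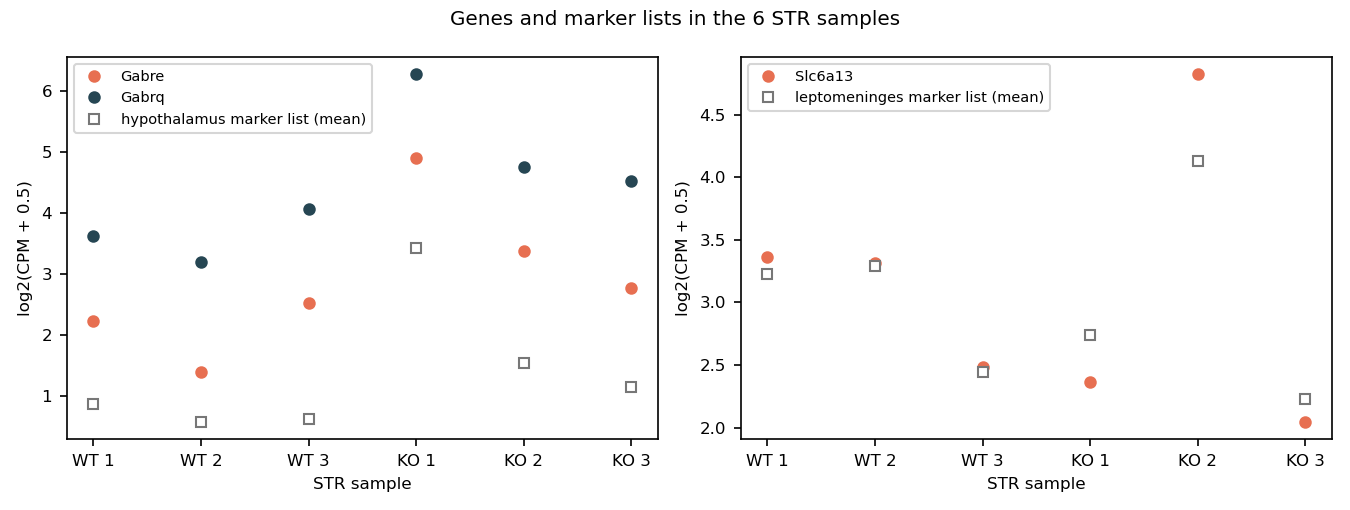
Level of *Gabre*, *Gabrq* and *Slc6a13* in each STR sample beside the mean level of the hypothalamus and leptomeninges marker lists, on the log2(CPM + 0.5) scale. KO sample 1 is highest for *Gabre*, *Gabrq* and the hypothalamus list, and KO sample 2 is highest for *Slc6a13* and the leptomeninges list.

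The other STR genes had smaller fitted differences between KO and WT. Those of synthesis and packaging were *Gad1* (0.07 ± 0.08), *Gad2* (0.11 ± 0.10) and *Slc32a1* (0.09 ± 0.08), and *Abat* had 0.07 ± 0.09. The receptor genes were *Gabra2* (0.32 ± 0.24), *Gabra4* (-0.17 ± 0.11), *Gabra5* (0.12 ± 0.12), *Gabrb1* (0.35 ± 0.18), *Gabrb2* (0.43 ± 0.25), *Gabrg3* (0.14 ± 0.10), *Gabbr1* (0.01 ± 0.08) and *Gabbr2* (0.08 ± 0.12). For the scaffold the values were *Gphn* (-0.04 ± 0.08), *Nlgn2* (0.06 ± 0.08) and *Gabarap* (-0.04 ± 0.08). None of the 22 tested genes of the second list passed in STR, and 2 had an unadjusted p under 0.05 (8.70% of all genes).

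In NPCs 0 of 15 tested genes passed between KO and WT by edgeR's quasi-likelihood test, DESeq2 and edgeR's exact and likelihood ratio tests, and 0.00697% of 14351 genes passed the first. At an unadjusted p under 0.05 there was 1 gene (3.03% of all genes), and 0 genes had groups that did not overlap (7.79% of all genes). *Gabra2* had 6.56, 21.1 and 12.7 CPM in WT and 5.43, 5.33 and 8.29 CPM in KO, a log2 fold change of -1.06 ± 0.43 (edgeR adjusted p = 1), with WT sample 2 the highest. *Slc6a11* had -0.07 ± 0.18, *Gabrg1* -0.02 ± 0.16, *Abat* 0.05 ± 0.22 and *Gad1* 0.25 ± 0.29 on the log2 scale. In ESCs 0 of 7 tested genes passed in the same 4 tests, as did 0% of 15080 genes in the quasi-likelihood test, and 0 had an unadjusted p under 0.05 (1.13% of all genes). The groups did not overlap for 1 gene (23.7% of all genes), *Abat*, with 5.61 and 5.96 CPM in WT and 6.15 and 8.29 CPM in KO (0.32 ± 0.24, edgeR adjusted p = 1). *Gabarap* and *Nlgn2* differed more by sample number than by genotype in ESCs, with 55.4 and 55.0 CPM for *Gabarap* in WT and KO sample 1 and 82.3 and 93.4 CPM in sample 2.

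Whether the KO difference depended on the brain region was tested as an interaction over all 12 brain samples. None of 23 tested genes passed in edgeR's quasi-likelihood or likelihood ratio test or in DESeq2, and 0.00624% of 16028 genes passed the first. At an unadjusted p under 0.05 there were 2 genes (6.41% of all genes). The interaction, coded as the KO difference in PFC minus that in STR, was -0.55 ± 0.16 for *Slc6a11* (edgeR adjusted p = 0.62) and -0.39 ± 0.14 for *Gabrg1* (edgeR adjusted p = 0.662). For the genes called between regions in WT samples only, it was 0.26 ± 0.15 for *Gabra4*, 0.32 ± 0.16 for *Gabrd* and -0.12 ± 0.32 for *Gabrb2* (edgeR adjusted p = 0.877, 0.799 and 1).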

How the data were processed

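RNA was sequenced from 22 samples after TruSeq library preparation. The authors used CASAVA 1.7, the aligner STAR with the mm10 build, and HTSeq with Ensembl 75 genes. The deposited files hold raw counts per gene, 1 table per sample. Counting ignored strand in the cultured cells per the labels of their files, and the setting for the brain samples is not given in the sources used here. CPM and RPKM were computed here, with symbols and exon lengths from GENCODE M21, which matched 37607 of 39179 identifiers and 99.709% of the counts.

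Groups came from the sample labels. Each comparison was fitted on all genes past edgeR's expression filter with edgeR 4.0.16 in R 4.3.3 (TMM, robust quasi-likelihood test, no block), and a Benjamini-Hochberg adjusted p under 0.05 was the threshold. SE is the log2 fold change over the root of the test statistic. The pipeline was tested on simulated data. Alternatives were RLE factors, joint fits, non-robust estimation, an open filter or a minimum of 10 counts throughout, a log2 fold change beyond 1, DESeq2 1.42.0, the likelihood ratio and exact tests of edgeR, other gene lengths, a replicate block and each sample left out. All 25 genes are named. Of the second list, at most 3 genes higher and 3 lower with the smallest adjusted p are named per comparison. Genes and lists were chosen with earlier results of these data known.

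Replicate numbers pair the PFC and STR samples (correlation of deviations from group means 0.192 to 0.414 in WT and 0.147 to 0.201 in KO) and the KO and WT NPC samples (0.539 to 0.721). Some genes of this system are not reported here.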

Additional observations from a re-analysis of the deposited data

Results flagged for a closer look

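*Abat*, the GABA transaminase, was singled out because its KO and WT samples separated in opposite directions in 2 tissues. In PFC each KO sample was below each WT sample (log2 fold change -0.0896), and in ESCs each KO sample was above each WT sample (0.32). Neither difference passed edgeR's test, 16.6% of all genes in PFC and 23.7% in ESCs had groups that did not overlap, and the difference between the tissues was not tested.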

How the results depend on the processing

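The number of these genes called between PFC and STR fell from 14 to 4 in WT and from 12 to 6 in KO samples when a log2 fold change beyond 1 was also required. Between NPCs and ESCs it fell from 14 to 7 with at least 10 counts in every sample, a setting that leaves 7 of these genes to test. Between KO and WT in PFC edgeR's exact test, its likelihood ratio test and the fit with no filter each called 1 gene where the main test called 0. In STR DESeq2 called 2 and the exact and likelihood ratio tests called 1 each. The cause was not tested, and the share of all genes called in each setting is not given here. The log2 fold change of *Slc6a13* between KO and WT in STR turned from 0.56 to -0.95 without STR KO replicate 2, and ran from -0.95 to 0.97 as each sample was left out. With each sample left out in turn, the counts ran from 12 to 14 (PFC against STR, WT), from 11 to 14 (KO) and from 10 to 15 (NPC against ESC), and stayed at 0 for the genotype comparisons and the interaction.

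The replicate block gave 16 and 14 calls between PFC and STR (WT and KO) and 0 calls in each genotype comparison and in the interaction. The numbers are not shown to pair the KO and WT samples of PFC (correlation of same-numbered samples -0.0335 to 0.0616) or of STR (-0.0206 to 0.133). Nor are they shown to pair NPC with ESC samples (-0.028 to 0.0137). In ESCs the KO and WT samples of the same number deviated together (0.888, 2 pairs, against -0.888 for unlike numbers). With 2 samples a group the deviations mirror each other, so both correlations come from the same values. With the block 11 genes were called between NPCs and ESCs. Among alternative values for single genes and level counts, 666 kept direction and side of the threshold or stayed within 1.5 times, 40 lost the threshold, 7 gained it and 1 changed sign. The number of samples, 2 or 3 a group, limits these tests: low genes such as *Gabrr2*, *Gabre* and *Gabra6* rest on few counts.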
